A study of Mus musculus with 37 samples.

Results

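The 10 oocytes at the germinal vesicle (GV) stage that the labels place in batch B are described here by how much their transcriptomes differed from each other. They were taken by their labels alone and made up 10 of the 37 single mouse oocytes that were sequenced. Genes were ranked by their variation among the 10 oocytes. The spread was then read against sequencing depth, markers of somatic cells, and the state of the oocyte before meiosis resumes.

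The series profiled the RNA of single oocytes with Smart-seq2, a method that copies and amplifies polyadenylated RNA from 1 cell. Batch A held 6 GV oocytes and 6 oocytes at metaphase II (MII), and batch B held 10 GV oocytes and 15 oocytes at metaphase I (MI). They came from C57BL/6 females of 6 to 8 weeks that received 5 IU of pregnant mare serum gonadotropin (PMSG), a hormone that drives follicle growth, and MII oocytes were ovulated after a further gonadotropin. The interval between PMSG and the removal of GV oocytes was 48 h. The MI group began as GV oocytes without their cumulus cells and had 8 h to mature outside the body, in M16 medium. Hyaluronidase, which loosens the surrounding cells, was present in the M2 medium used for collection. Acidic Tyrode's solution then freed each oocyte of its zona pellucida. Nothing in the labels names the animal an oocyte came from, so each stage of each batch counted as 1 sample, and no p-value across oocytes is given as a result. Such p-values served only to pick genes, namely those of a maturation index, which is given below beside one picked without them, and the 5 leading genes in each direction of 2 model fits.

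A GV oocyte is arrested in prophase of the first meiotic division, with an intact nucleus, and grows inside a follicle in contact with cumulus and granulosa cells. Near the end of growth its chromatin condenses around the nucleolus and transcription stops, so that the full-grown oocyte lives on stored maternal messenger RNA. Many of these messages are kept dormant and are translated or degraded only after meiosis resumes.

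Depth, the sum of expected counts without spike-in sequences, was lowest at 7184205 in oocyte 4, had a median of 11548242 and was highest at 17724506 in oocyte 2. The reads carried no molecular identifiers, so every interval printed here covers counting error only. Oocyte markers were present throughout: 22 of the 24 listed genes reached a mean of 50 counts, and none was at 0 in all 10 oocytes. Their summed level in CPM, counts scaled to a library total of 1000000, was lowest at 7156 in oocyte 3, had a median of 8881 and was highest at 12437 in oocyte 2. Gdf9, a growth factor that the oocyte sends to its cumulus cells, was the most abundant of them, with 22.8% of the sum. H1foo, the linker histone of the oocyte, ranged from 889 CPM to 2092 CPM, Nlrp14 from 628 to 1263 CPM, and Padi6, a protein of the cytoplasmic lattices, from 543 to 1213 CPM. Each of the 10 thus carried markers of an oocyte, but the list does not tell the stages apart, since its sum ran from 4939.5 to 11252 CPM in the MI oocytes of the same batch.

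The 10 oocytes were alike in the order of their genes. The Spearman correlation between oocytes over the 8585 genes with a mean of at least 50 counts had a median of 0.906 over the 45 pairs of oocytes and ran from 0.820, between oocytes 7 and 10, to 0.936, between oocytes 5 and 6. The median coefficient of variation was lower for abundant genes, from 47.9% over the 2438 genes with a mean under 10 CPM to 21.9% over the 66 genes with a mean of at least 1000 CPM. Excess variation was then taken as the log2 of the squared coefficient of variation minus a smooth trend fitted on mean CPM. It had a median of 0.02 over the 8585 genes and was above 2, which is 4 times the squared variation of the trend, for 138 genes (1.61%). The last gene inside that threshold was Tuba3b and the next gene outside was Rab11fip4, both with an excess of 2.00 after rounding.

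**Figure D1:**
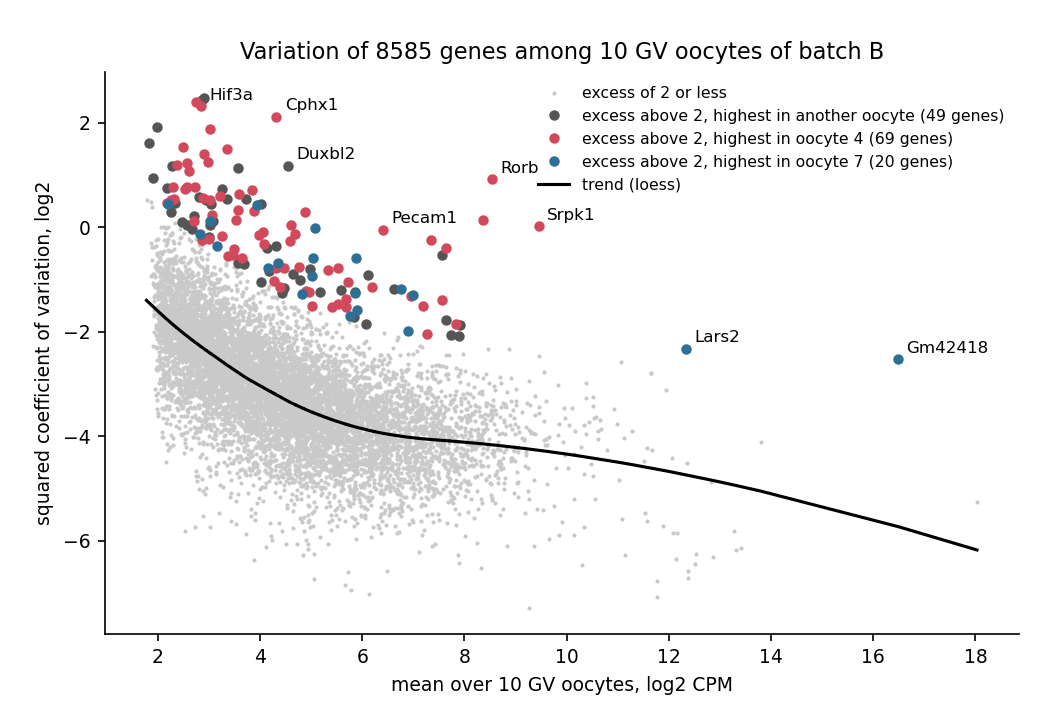
Variation of the 8585 genes among the 10 GV oocytes of batch B: the horizontal axis gives the mean in log2 CPM, the vertical axis the log2 of the squared coefficient of variation, each point is 1 gene and the line is the fitted trend. Coloured points are the 138 genes with an excess above 2, of which 69 were highest in oocyte 4 and 20 in oocyte 7.

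Most of the leading genes were highest in oocyte 4. Of the 20 genes with the highest excess, 16 had their highest value there, and of all 138 genes above the threshold 69 did (50%), against 1022 of the 8585 genes (11.9%). Oocyte 7 followed with 20 of the 138 genes (14.5%, against 6.42% of all genes). Among the 138, oocyte 1 was highest for 12 (8.70%, against 10.1% of all genes), oocyte 2 for 10 (7.25%, against 14.9%) and oocyte 6 for 9 (6.52%, against 15.7%). Oocyte 9, the lowest in this count, was highest for 2, Gm49371 and mt-Co2 (1.45%, against 15.2%). Without oocyte 4 the number of genes above the threshold was 83, and with all oocytes it was 222 with TMM scaling in place of CPM. Oocyte 4 was also the shallowest library, and what depth contributed to its high values was not tested.

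Several protein-coding genes were near silent in 9 oocytes and high in oocyte 4. Hif3a, a subunit of the hypoxia-inducible transcription factors (chromosome 7, 17031507 to 17062427 on mm10), ranged from 1.13 CPM to 4.91 CPM in the other 9 oocytes and reached 52.9 CPM in oocyte 4. Egflam, which encodes the extracellular matrix protein pikachurin (chromosome 15, 7206120 to 7398395), had a median of 1.60 CPM, a next-highest value of 4.45 CPM and 50.4 CPM in oocyte 4. Cipc, a repressor that binds the circadian factor CLOCK (chromosome 12, 86947043 to 86965362), had a median of 3.40 CPM and 51.9 CPM in oocyte 4. The same oocyte thus stood alone for all 3 genes, with no overlap of its value with the rest. Muc20, a mucin, had a median of 5.38 CPM and reached 58.3 CPM, and Gnat2, the transducin subunit of cone photoreceptors, had a median of 3.77 CPM and reached 41.1 CPM. Vps45, which acts in vesicle transport, reached 40.9 CPM over a median of 3.11 CPM, and Exoc6b, a subunit of the exocyst, reached 32.3 CPM over a median of 3.29 CPM. Cdc42ep3, an effector of the GTPase Cdc42, reached 65.1 CPM over a median of 9.53 CPM. Prr14, a protein that ties heterochromatin to the nuclear lamina, was less exclusive: it was 520 CPM in oocyte 4, 286 CPM in oocyte 2 and 246 CPM in oocyte 7, over a lowest value of 58.0 CPM in oocyte 1. These 9 genes were highest in oocyte 4 in the HTSeq counts as well, where their excess ran from 3.62 for Exoc6b to 4.54 for Hif3a and Egflam.

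A gene without a known role, C130074G19Rik (chromosome 1, 184871926 to 184883218, protein coding), stood apart in another oocyte. It measured 55.2 CPM in oocyte 10 and from 0.698 to 4.87 CPM in the others, and its excess was 4.74 with expected counts and 4.90 with HTSeq counts. Once its highest oocyte was left out, its excess was −0.57, so the other 9 oocytes varied no more than the trend. Ly6e, a membrane protein of the Ly6 family, was instead spread over several oocytes, from 0.376 CPM in oocyte 9 through a median of 4.97 CPM to 46.2 CPM in oocyte 4, and its excess was 3.43 with all oocytes and 3.28 without the highest.

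**Figure D2:**
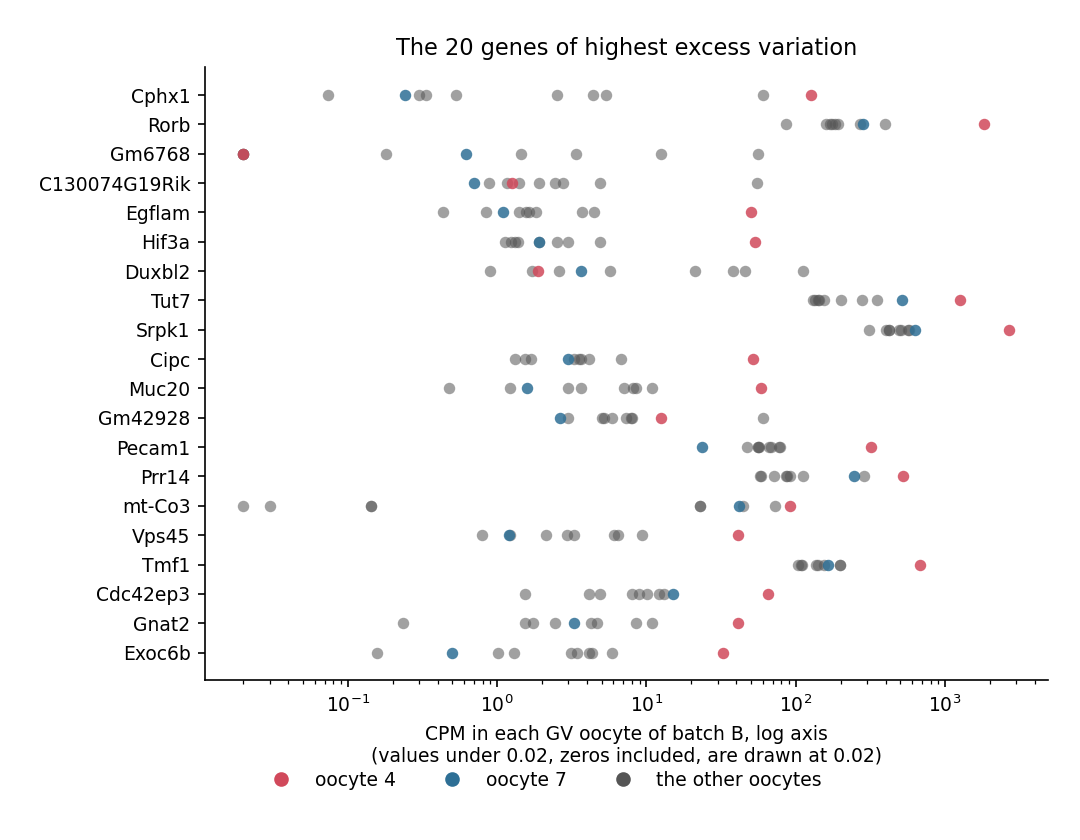
Level of the 20 genes with the highest excess variation in each of the 10 GV oocytes of batch B, in CPM on a log axis, 1 point per oocyte. Oocyte 4 holds the highest value of 16 of the 20 genes.

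For 10 of these 20 genes the variation is uncertain, because the HTSeq counts did not show it. In 4 of them the gene had a mean of at least 50 HTSeq counts but an excess of 2 or less there. Srpk1, a kinase of splicing factors, was 2691 CPM in oocyte 4 and from 309 to 629 CPM in the others, yet in HTSeq counts it ranged from 340 to 539 CPM with an excess of −1.13. Pecam1, an adhesion protein of endothelium and platelets, was 317 CPM in oocyte 4 and from 23.6 to 78.4 CPM elsewhere, with an HTSeq excess of −0.31. Tmf1, a Golgi protein, and Tut7, an enzyme that adds uridines to RNA tails, had an HTSeq excess of 0.03 and 0.72. The other 6 had a mean under 50 HTSeq counts. Among them Rorb, a nuclear receptor, was at 1809 CPM in oocyte 4 and from 85.6 to 395 CPM elsewhere in expected counts, but at no more than 1.05 CPM in any oocyte in HTSeq counts. Gm6768, a processed pseudogene, was highest in oocyte 3 at 56.2 CPM, and Gm42928 in oocyte 6 at 60.7 CPM.

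The remaining 3 of the 6 belong to sets of near-identical copies, among which expected counts divide shared reads. Cphx1, a homeobox gene of the oocyte, was 126 CPM in oocyte 4 and 60.1 CPM in oocyte 2 over a median of 1.53 CPM, but the sum of Cphx1, Cphx2 and Cphx3 ran only from 329 CPM in oocyte 8 to 643 CPM in oocyte 1, a 1.95-fold range. Duxbl2, a double homeobox gene, was highest in oocyte 1 at 111 CPM, while the sum of Duxbl1, Duxbl2 and Duxbl3 ranged 2.06-fold, from 75.7 CPM in oocyte 10 to 156 CPM in oocyte 6. The copies together varied far less than each copy, so the excess of Cphx1, Cphx2 and Duxbl2 is reported as uncertain. The mitochondrial gene mt-Co3, a subunit of cytochrome c oxidase, shares its sequence with the nuclear pseudogene Gm28661. Their sum was 0.142 CPM in oocyte 1, 0.144 CPM in oocyte 5 and 0.0311 CPM in oocyte 6, against 61.5 to 144 CPM in the other 7. Gm28437, another pseudogene copy of mitochondrial sequence, ranged from 0.145 to 142 CPM, and these values too are uncertain. The sums of copies, and Psmc6, mt-Co2, mt-Atp6, Olfr288, Vmn2r53, Rbm38, Gpd2, Abi1, Gm49371, Stc2 and Senp1 named elsewhere, were chosen after the values were seen.

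Some genes were nearly equal in all 10 oocytes. Taf10, a subunit of the general transcription factor TFIID, had the lowest excess at −3.76, with values from 4.90 CPM in oocyte 2 to 7.40 CPM in oocyte 7. Lmna, the A-type lamin of the nuclear envelope, ranged from 45.3 to 64.4 CPM with an excess of −3.15. The splicing proteins Snrnp27 and Snrpb2 ranged from 63.7 to 83.7 CPM and from 40.3 to 55.3 CPM. The highest oocyte differed among these steady genes, and none of the 4 showed the split of oocyte 4 from the rest. Mrfap1, Rtkn2 and Rxylt1 were also among the 10 lowest, with an excess of −3.41, −3.33 and −3.18, as were 1810030O07Rik at −3.54, Gm47414 at −3.21 and Gm42847 at −3.04.

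The 138 variable genes held a lower share of protein-coding genes than all genes. Among those with an annotated class, 80.3% were protein coding and 6.57% were pseudogenes, against 92.4% and 1.70% of the 8283 kept genes with such a class. The 69 genes highest in oocyte 4 were 97.1% protein coding, whereas the 49 that were highest in an oocyte other than 4 and 7 were 63.3% protein coding. Of the 138 genes, 97 had a mean of at least 50 HTSeq counts, and 83 of these (85.6%) had an excess above 2 there too, against 2.03% of all genes with enough HTSeq counts. For the 69 genes of oocyte 4 the median ratio of that oocyte to the median of the other 9 was 5.44 in expected counts and 4.66 in HTSeq counts, and 56 of the 69 were highest in oocyte 4 by HTSeq counts. Their median transcript length of 2750.5 bases was close to the 2743 bases of all genes, while the 20 genes highest in oocyte 7 had a median of 1590.3 bases.

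Part of this variability recurred in oocytes that the ranking had not used. Of the 100 genes with the highest excess, 51 were among the top 10% (10%, 859 of 8585 genes) in the 15 MI oocytes of batch B, and 34 were among the top 10% (10%, 859 of 8582 genes) in the 6 GV oocytes of batch A. The median excess of the 100 genes was 1.05 in the MI oocytes and 0.52 in the GV oocytes of batch A, against 0.01 and 0.03 over all genes. An excess above 2 in the MI oocytes was found for 13 of the 69 variable genes highest in oocyte 4, 7 of the 20 highest in oocyte 7 and 13 of the 49 highest elsewhere, against 174 of all 8585 genes. In the GV oocytes of batch A the numbers were 9, 4 and 20, against 358 of all genes, and the difference between these groups of genes was not tested. Hif3a had an excess of 0.49 in the MI oocytes and −1.13 in batch A, and Egflam 0.56 and −0.13. By contrast, Prr14 had 3.72 and Muc20 2.92 in the MI oocytes, where Prr14 ran from 26.9 to 715 CPM and Muc20 from 0 to 31.1 CPM. With HTSeq counts the number shared with batch A was 17 of 100. The biological coefficient of variation was taken from the common estimate of edgeR, which all kept genes of a group share. It was 38.3% among the 10 GV oocytes, 42.5% among the MI oocytes and 28.7% among the GV oocytes of batch A. The labels give the batches no further meaning, and stage and batch cannot be told apart between MI in batch B and GV in batch A.

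Oocyte 7 lay apart from the others over all genes. The first principal component of log2(CPM + 1) carried 26.1% of the variance, and oocyte 7 alone made up 65.9% of its sum of squares. The next component carried 16.7%, led by oocyte 10 with 28.6%, and the one after it 12.2%, of which oocyte 4 made up 63.8%. Oocyte 7 was the lowest of the 10 for 3120 of the 8585 genes. Against the median of the other 9 oocytes, 1787 genes were over 2-fold lower in it and 225 were over 2-fold higher, and the median over all genes was −0.42 on the log2 scale. The split differed with the scaling and the counts used, in alternatives chosen after the values were seen. With totals without ribosomal RNA-like and mitochondrial features 785 genes were lower and 797 higher, with TMM 702 and 750, and with HTSeq counts 1263 and 833 of 9638 genes, with a median of −0.11. The ribosomal RNA-like share of counts was also highest in oocyte 7, at 53.5% over a median of 38.5%. The differences by length class given next are in CPM and include the median of −0.42.

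The genes that were lower in oocyte 7 tended to be long, as in some oocytes of the other groups. Its median log2 difference from the other oocytes was 0.26 for the 696 genes with transcripts under 1 kb, −0.13 for the 1991 genes of 1 to 2 kb, −0.51 for the 3428 genes of 2 to 4 kb and −0.79 for the 2168 genes over 4 kb. The next lowest value in the longest class was −0.19, in oocyte 4. The Spearman correlation across genes between this difference and transcript length, in which genes are not independent replicates, was −0.411 in oocyte 7, −0.232 in oocyte 9 and −0.182 in oocyte 4, and it was highest in oocytes 3 and 10, at 0.315 and 0.266. Outside the 10, each oocyte being set against the others of its group, it was −0.465 in oocyte 4 and −0.286 in oocyte 5 of the GV oocytes of batch A, and −0.358 and −0.303 in MI oocytes 1 and 5. In oocyte 7 GC content followed the difference less closely than length, with a correlation of 0.127. This did not hold in all oocytes. In oocyte 6 it was −0.133, against 0.005 for length. In GV oocyte 3 of batch A it was 0.456, against 0.002. The share of counts on transcripts annotated as retained introns was lowest in oocyte 7 at 1.40% (Wilson 95% interval 1.39% to 1.41%), with a median of 2.05% and a highest value of 2.43% in oocyte 1.

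**Figure D3:**
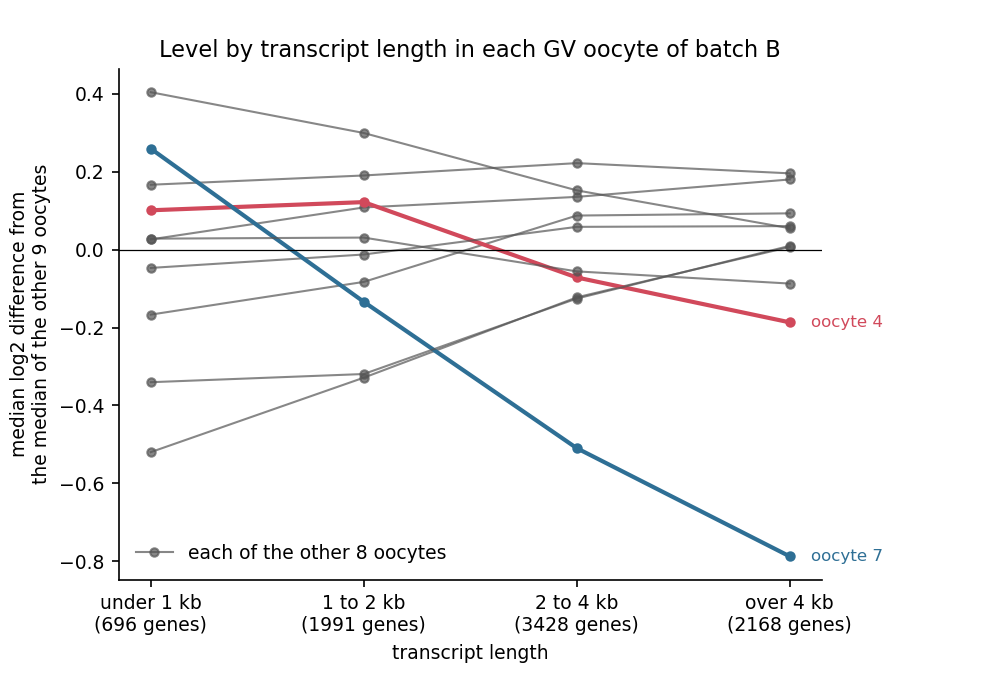
Median log2 difference of each GV oocyte of batch B from the median of the other 9, by class of transcript length, with 1 line per oocyte. The line of oocyte 7 goes from 0.26 under 1 kb to −0.79 over 4 kb, below the other 9 in the longest class; oocytes of other groups are not drawn.

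Gene groups differed in oocyte 7 as well. Relative to the median of all genes in the same oocyte, oocyte 7 was high for the mitochondrial genome (median log2 difference 1.27 over 11 genes), the nuclear-encoded respiratory chain (0.82, 66 genes), the canonical histones (0.69, 23 genes), the cytoplasmic ribosomal proteins (0.68, 78 genes), the mitochondrial ribosomal proteins (0.57, 66 genes) and the proteasome (0.50, 33 genes). It was low for the chromatin regulators of the GV (−0.94, 13 genes) and for heat shock genes (−0.91, 7 genes). The CCT chaperonin, which folds actin and tubulin, was closer to the middle at −0.17 over 8 genes. Oocyte 3 was the lowest of the 10 for histones (−0.80), the respiratory chain (−0.47), cytoplasmic ribosomal proteins (−0.43), mitochondrial ribosomal proteins (−0.41) and the proteasome (−0.37). The median transcript length was 762 bases for the cytoplasmic ribosomal proteins and 4826 bases for the chromatin regulators, against 2743 bases over all genes. Heat shock genes, with a median of 2317.5 bases, were low, and sensory receptor genes, at 5809 bases, were highest in oocyte 7 (0.27, 31 genes). What length contributed to these differences was not tested.

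In plain CPM oocyte 9, and not oocyte 7, was the highest for 4 of these groups. Summed cytoplasmic ribosomal protein genes ran from 1572 CPM in oocyte 3 to 2866 CPM in oocyte 9, with Rpl4 as the most abundant gene, and mitochondrial ribosomal protein genes from 1213 CPM in oocyte 3 to 1935 CPM in oocyte 9. Nuclear genes of the respiratory chain, led by Sdha, ran from 1206 to 2124 CPM between the same 2 oocytes, and canonical histone genes, led by Hist1h4c, from 619 to 1294 CPM. No kept member of these 4 groups had an excess above 2, against 1.61% of all genes. Proteasome genes ran from 1538 CPM in oocyte 10 to 2714 CPM in oocyte 6, and here 2 of 33 members were above the threshold: Psmd4, the ubiquitin receptor of the proteasome, which reached 515 CPM in oocyte 1 over a median of 210.4 CPM, and Psmc6, an ATPase of its base, which reached 203 CPM in oocyte 6 over a median of 53.1 CPM. The CCT chaperonin ran from 578 CPM in oocyte 7 to 1254 CPM in oocyte 6.

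Mitochondrial transcripts were among the measures that lay close to the first component. They took 0.0809% of counts in oocyte 10 (Wilson 95% interval 0.0796% to 0.0823%), had a median of 0.110% and took 0.196% in oocyte 7 (0.194% to 0.199%). The squared correlation of this share with the first component over the 10 oocytes was 80.3% (r = 0.896, rho = 0.709), and it was 45.9% once oocytes 7 and 9, the 2 farthest from the median share, were left out. The sum of the 13 protein-coding mitochondrial genes ran from 809 CPM in oocyte 10 to 1962.5 CPM in oocyte 7, and 3 of the 11 kept members had an excess above 2, against 1.61% of all genes: mt-Co3, mt-Atp6 and mt-Co2. All 3 had a mean under 50 HTSeq counts, and their excess is uncertain. Oocyte 7 was not high for each of these genes. It was the highest oocyte for mt-Cytb, at 523 CPM over a median of 231 CPM, and for mt-Co1, at 337 CPM over a median of 156 CPM, but the lowest for mt-Nd5, at 145 CPM over a median of 213 CPM. The length correlation of each oocyte, a measure added after the values were seen, had a squared correlation of 73.0% with the component (r = −0.855, rho = −0.733), and 68.7% without oocytes 3 and 7, the 2 farthest from its median. By rank, depth (rho = −0.782), the retained-intron share (−0.770) and the length correlation lay closer to the component than the mitochondrial share, and with TMM scaling the length correlation (92.8%) and the mitochondrial share (91.2%) were near each other. Ribosomal RNA-like features, a group of 191 led by CT010467.1, ran from 30.05% of counts in oocyte 2 (30.03% to 30.08%) through a median of 38.5% to 53.52% in oocyte 7 (53.49% to 53.55%). Of their 8 kept members 1 was above the threshold, against 1.61% of all genes: Gm42418, which is uncertain, since it was at 0 in the HTSeq counts. Their correlation with the component had r = 0.746 (squared 55.6%), and that of the retained-intron share r = −0.846 (squared 71.7%). With oocyte 7 dropped from the same component these were 0.329 and −0.620. With TMM the squared correlations were 25.8% and 52.1%, and on the 1000 genes of highest excess 27.4% and 44.9%. With HTSeq counts that of the ribosomal RNA-like share was 9.23%. On a component recomputed from the other 9 oocytes, which is another axis, the squared correlations were 5.27% and 4.78%, and without oocytes 4 and 7 they were 38.6% and 0.876%. Here and below, a squared correlation without 1 oocyte, without oocytes 4 and 7, or with other scaling or counts comes from a recomputed component, whose sign is arbitrary, and one without the 2 oocytes farthest from the median keeps the original component. These measures come from the same libraries as the component and share their depth, so the values are a description.

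Across the 10 oocytes, 137 of the 8585 genes (1.6%) had a Spearman correlation with depth of size 0.8 or more, 127 of them positive and 10 negative, and 1 of the 138 variable genes, Rbm38, did (0.725%). The difference between these shares, here and for the measures below, was not tested and rests on few genes. The median size of the correlation was 0.297 over all genes and 0.261 over the variable genes. More genes followed the length correlation (510, 5.94%), the mitochondrial share (475, 5.54%) and the ribosomal RNA-like share (387, 4.51%) at this size. Among the variable genes the numbers were 5 of 138, 3 of 135 and 1 of 137. A rank correlation responds little to a gene that is high in a single oocyte, and 69 of the 138 were highest in oocyte 4, the shallowest library. Of the 5 leading genes of a model fit that were higher in deeper libraries, Myh9, the heavy chain of non-muscle myosin, went from 20.3 CPM in oocyte 7 through a median of 63.6 CPM to 136 CPM in oocyte 10 (rho = 0.915), and Dync1h1, the heavy chain of cytoplasmic dynein, from 7.38 to 54.3 CPM (rho = 0.867). Anapc1, a subunit of the anaphase-promoting complex, ran from 24.1 CPM in oocyte 4, the shallowest library, to 89.8 CPM in oocyte 2, the deepest (rho = 0.891), and Ccdc88c and Speer4f2 had a rho of 0.758 and 0.794. The 5 genes on the other side were Hif3a (rho = −0.733), Cdc42ep3 (−0.648), Gna12, a subunit of a heterotrimeric G protein (−0.648), Srpk1 (−0.539) and Cipc (−0.418), and all 5 had their highest value in oocyte 4.

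The squared correlation of depth with the first component was 24.5% (r = −0.495, rho = −0.782), and 13.2% without oocytes 2 and 10, whose depths were farthest from the median. It was 1.73% without oocytes 4 and 7. Genes detected at equal total counts, after each library was thinned to the size of the shallowest of batch B, ran from 14284 in oocyte 4 through a median of 15008 to 15715 in oocyte 1, and their squared correlation with the component was 37.0% (r = −0.608) with all oocytes and 18.2% without oocyte 7. That value was 0.882% (r = 0.0939) with HTSeq counts and 0.935% without oocytes 4 and 7. Equal totals did not make the other features equal in counts: outside the ribosomal RNA-like features they left 1259161 counts in oocyte 7 and 1895035 in oocyte 2. With those features left out before thinning, a setting chosen after the values were seen, the number ran from 13878 in oocyte 4 to 14945 in oocyte 1, and the squared correlation was 2.49% (r = −0.158). Leaving out an oocyte changed the number of genes that followed depth by over 1.5 times for 6 of the 10: it was 245 without oocyte 1, 214 without oocyte 3, 243 without oocyte 5, 234 without oocyte 6, 382 without oocyte 9 and 292 without oocyte 10. With fewer oocytes a correlation of that size is more frequent by construction. With RLE or TMM normalization 53 genes were positive and 43 negative, and with HTSeq counts 48 and 37.

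Of the 17 listed markers of cumulus and granulosa cells, 3 had a mean of at least 50 counts and 3 were at 0 in all 10 oocytes. The summed level of the list ran from 81.9 CPM in oocyte 7 through a median of 118 CPM to 150.4 CPM in oocyte 9. Serpine2, a secreted protease inhibitor, made up 63.7% of the sum, and the other members with a mean of at least 50 counts were Cyp19a1, the aromatase that makes estrogen, and Nr5a2, a nuclear receptor. The 3 genes did not share a highest oocyte: oocyte 9 led for the first and the last and oocyte 10 for Cyp19a1. Serpine2 ran from 34.6 to 103 CPM, Cyp19a1 from 11.7 to 21.4 CPM and Nr5a2 from 5.81 to 21.2 CPM. Of the genes that define granulosa cells, Amh, its receptor gene Amhr2 and the transcription factor Foxl2 were at 0 in all 10 oocytes. Fshr, the receptor for follicle-stimulating hormone, was at 2.19 CPM in oocyte 7 and at 0 in the other 9. Which cells the marker RNA came from, the oocyte itself included, was not tested. Differences in adhering cells, in RNA per cell and in RNA of the oocyte cannot be told apart.

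Some markers did differ between oocytes at a low level. Gja1, the connexin of granulosa gap junctions, was 9.59 CPM in oocyte 10 and 7.41 CPM in oocyte 1, against 0.347 to 2.48 CPM in the other 8. Ccnd2, a cyclin of proliferating granulosa cells, was highest in the same 2 oocytes, at 8.35 and 6.46 CPM over a median of 3.03 CPM. Oocytes 10 and 1 were thus high for both genes, although the summed list placed oocyte 10 next to the lowest. Kitl, the ligand for the receptor Kit of the oocyte, was also highest in oocyte 10, at 6.16 CPM over a median of 3.73 CPM, and Fst, which binds activin, was 3.14 CPM there and no more than 0.0964 CPM elsewhere. Inhba, the beta subunit of activin, was 5.87 CPM in oocyte 2 over a median of 1.15 CPM. The others listed stayed under 2 CPM: Nr5a1 reached 1.41 CPM in oocyte 2, Inha 0.997 CPM and Inhbb 0.698 CPM in oocyte 7, Wt1 0.858 CPM in oocyte 1 and Hsd17b1 0.296 CPM in oocyte 10.

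Across the 10 oocytes, 170 of 8582 genes outside the list (1.98%) had a Spearman correlation of size 0.8 or more with the summed markers, and 1 of the 138 variable genes, Gpd2, did (0.725%). Of the 5 genes that led in the positive direction of a model fit, Iars, an isoleucyl-tRNA synthetase, ran from 82.0 CPM in oocyte 7 to 263 CPM in oocyte 6 (rho = 0.867), and Kif23, a kinesin of cytokinesis, from 132 CPM to 393 CPM between the same 2 oocytes (rho = 0.891). Ikzf2, Gm32687 and Erc1 had a rho of 0.830, 0.806 and 0.794. In the negative direction the leading genes were CT010467.1 (rho = −0.818), Gm42418 and Gm15564 (both −0.539), Lars2, a mitochondrial leucyl-tRNA synthetase (−0.333), and Cdca3 (−0.248). The last 4 were highest in oocyte 7, the oocyte with the lowest marker sum. Lars2 was 10979 CPM there over a median of 4587 CPM. CT010467.1 and Gm42418 are ribosomal RNA-like features, whose share of counts was also highest in oocyte 7. What that share contributed to the values of these genes was not tested.

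The number of genes that followed these markers differed with the scaling, the counts used and single oocytes. With CPM 164 of the 170 genes were positive and 6 negative. With TMM or RLE normalization the number was 47, of which 21 were positive and 26 negative, and with HTSeq counts it was 46. It was 366 without oocyte 1, 302 without oocyte 2, 374 without oocyte 4, 261 without oocyte 5 and 367 without oocyte 9, with the same effect of fewer oocytes as for depth. The squared correlation of the marker sum was 16.9% with the first component (r = −0.411) and 53% with the next one (r = −0.728, rho = −0.721). The value for the next component was 60.3% without oocytes 7 and 9, and it was lower in several other settings: 11.9% with TMM, 12.2% with totals without ribosomal RNA-like and mitochondrial features, 32.1% with HTSeq counts, 27.4% on the 1000 genes of highest excess, 22.4% without oocyte 7, 27.3% without oocyte 10 and 2.74% without oocytes 4 and 7. The value for the first component was 2.30% with TMM, 1.92% with totals without ribosomal RNA-like and mitochondrial features, 2.21% on the 1000 genes of highest excess, 5.15% with HTSeq counts and 26.8% with a mean count of at least 200. With all genes and CPM it was 26.9% without oocyte 3, 34.5% without oocyte 7, 41.8% without oocyte 9, 34.3% without oocyte 10, 55% without oocytes 4 and 7, and 0.465% without both oocytes 7 and 9, which were farthest from the median marker sum. With oocyte 7 dropped from the original first component the correlation was 0.288, and with HTSeq counts and all oocytes it was 0.227. With the next component, the squared correlation was 8.17% for the mitochondrial share and 20.5% for the length correlation. Without the 2 oocytes farthest from the median of each measure, these values were 83.9% and 73.5%.

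Markers of other cell types were summed by list. The 7 genes of cumulus expansion summed to between 0 and 4.44 CPM, with 4 of them at 0 in all oocytes and Has2, the hyaluronan synthase, as the most abundant. The 10 genes of theca and stroma, 1 of them at 0 in all oocytes, summed to between 1.12 CPM in oocyte 6 and 6.01 CPM in oocyte 5, led by Col3a1, and blood genes, led by the hemoglobin gene Hbb-bs, to between 1.47 and 9.31 CPM, with the highest value in oocyte 1. The 6 immune genes, 2 of them at 0 in all oocytes, ran from 6.94 CPM in oocyte 5 to 35.3 CPM in oocyte 2, of which C1qb made up 97.7%, while Ptprc, which encodes CD45 of all leukocytes, reached only 0.281 CPM. The endothelial list ran from 28.5 CPM in oocyte 7 to 324 CPM in oocyte 4, but 90.4% of it was Pecam1, whose high value in oocyte 4 was absent from the HTSeq counts. Kdr, the main receptor for vascular endothelial growth factor, was 7.80 CPM in oocyte 1 over a median of 0.824 CPM, and 2 of the 7 endothelial genes were at 0 in all oocytes.

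Oocyte 8 was the highest for some single markers of epithelium and mesenchyme, but not for others. The summed list of 5 genes of the ovarian surface epithelium was 9.56 CPM in oocyte 8, against 0.835 to 4.00 CPM in the other 9, with Muc16 as its most abundant gene. Muc16, a membrane mucin, was 5.62 CPM in oocyte 8 over a median of 0.808 CPM, and Upk3b, a uroplakin of mesothelium, 3.00 CPM over a median of 0.517 CPM. Vim, an intermediate filament protein of mesenchymal cells, was 25.2 CPM in oocyte 8 and at most 4.96 CPM in the other 9. It belongs to none of the marker lists. The collagen gene Col3a1 was 4.59 CPM in oocyte 8 and at most 1.38 CPM elsewhere. The summed list of theca and stroma was 4.97 CPM in oocyte 8, most of it Col3a1, and was highest in oocyte 5, at 6.01 CPM. Krt19, an epithelial keratin, was at 0 in all 10 oocytes, and Krt7 was highest in oocyte 5 at 1.78 CPM. Oocyte 8 held the highest value of 3 of the 138 variable genes, Vim, Stc2 and Senp1 (2.17%, against 6.23% of all genes).

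The state of the oocyte was read first from genes of arrest and of stored maternal RNA. None of the 14 and 19 kept members had an excess above 2, and with 1.61% of all genes above it such short lists cannot be set apart by this count. The 14 dormant maternal transcripts summed to between 4782 CPM in oocyte 3 and 6687 CPM in oocyte 2, with a median excess of −0.63 against 0.02 over all genes. Plat, which encodes tissue plasminogen activator and is the most abundant of them, ran from 1523 to 2887 CPM, Btg4, an adaptor for deadenylation, from 826 to 1382 CPM, and Cnot6l, a deadenylase, from 247 to 442 CPM. No oocyte stood apart for these genes, and relative to all genes the list ran from −0.15 in oocyte 10 to 0.21 in oocyte 7. The 21 genes of prophase arrest and resumption summed to 1951 CPM in oocyte 7, a median of 3117 CPM and 3929 CPM in oocyte 1, with Bub1b, a kinase of the spindle checkpoint, as the most abundant. Pde3a, the phosphodiesterase whose activity ends the arrest, was lowest in oocyte 7 at 237 CPM over a median of 443 CPM, Ccnb1, the cyclin partner of Cdk1, was lowest there at 206 CPM over a median of 336 CPM, and Wee2, an oocyte kinase that holds Cdk1 inactive, was lowest in oocyte 3 at 257 CPM over a median of 375 CPM. Relative to all genes of the same oocyte, this list was at −0.05 in oocyte 7. The arrest list had a median excess of 0.16.

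The sum of the chromatin regulators of the GV had a coefficient of variation of 24.6%, against 11.6% for the dormant transcripts and 17.8% for the arrest list. Without oocyte 7 the 3 values were 12.6%, 10.9% and 11.5%, so most of the difference between the lists rested on that oocyte. Their sum was 1708 CPM in oocyte 7, a median of 4390.3 CPM and 5715 CPM in oocyte 2. Dnmt1, the maintenance DNA methyltransferase, was 566 CPM in oocyte 7 over a median of 1478 CPM, Atrx, a chromatin remodeller of heterochromatin, 522 CPM over a median of 1436 CPM, and Uhrf1, which recruits Dnmt1, 128 CPM over a median of 262 CPM. All 3, and also the histone methyltransferase gene Setdb1, were lowest in oocyte 7, as were 3120 of all 8585 genes. Heat shock genes were likewise lowest in oocyte 7, at 1960.2 CPM over a median of 3950.3 CPM, led by Hsp90aa1, which was 1073 CPM there over a median of 2617 CPM.

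A maturation index was then computed for each oocyte from genes that differed between GV and MII. It is the mean log2(CPM + 1) of genes higher at MII minus that of genes lower at MII, with the genes chosen in batch A by a fit that took single oocytes as replicates. Of its 278 higher and 817 lower genes, 86 and 534 had a mean of at least 50 counts in these 10 oocytes. The index ran from −1.67 in oocyte 9 through a median of −1.27 to −0.38 in oocyte 1. The MI oocytes of the same batch ran from −1.90 to −0.81 with a median of −1.34. Of these 15, 12 lay within the range of the GV oocytes. The MI median was no higher than the GV median. The index was thus not shown to order the stages in batch B. In batch A the index separated the stages its genes had been chosen on, at −2.63 to −1.48 for GV and −0.28 to 2.00 for MII, and levels cannot be compared across the batches. Oocyte 1 had the highest index of the 10 and oocyte 3 the next, at −0.87. An index from genes picked with no test, the 210 higher and 1119 lower over 2-fold at MII between pooled counts, was chosen after the values were seen. It placed the 10 oocytes in nearly the same order (rho = 0.939), from −2.29 in oocyte 9 to −1.34 in oocyte 3 and −0.59 in oocyte 1, and 12 of the 15 MI oocytes again lay within their range.

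Of the 7965 genes outside the maturation index, 202 (2.54%) had a Spearman correlation with it of size 0.8 or more, 193 of them negative, and 1 of 110 variable genes, Abi1, did (0.909%). With TMM normalization 46 genes were positive and 54 negative, and with HTSeq counts the number was 459. The number was 318 without oocyte 2 and 481 without oocyte 7. With the index picked by pooled fold it was 142 of 7739 genes, 139 of them negative. The squared correlation of the index was 11.5% with the first component (r = −0.339) and 37.7% with the next one (r = 0.614, rho = 0.842), and both values moved with single oocytes and with the processing. With the index picked by pooled fold they were 4.76% and 36.2%. The value for the next component was 66.5% without oocytes 1 and 3, 74.65% without oocyte 1, 0.00714% without oocyte 7 and 24.6% without oocytes 4 and 7. It was 8.53% with TMM, 8.54% with totals without ribosomal RNA-like and mitochondrial features, 5.00% with HTSeq counts and 5.16% on the 1000 genes of highest excess. The value for the first component was 54.7% without oocyte 7, 19.097% without oocyte 6, and 2.31% without oocyte 1, 6.72% without oocyte 3, 6.19% without oocyte 4 and 7.05% without oocyte 10. It was also 78.5% with HTSeq counts, 26.2% with TMM, 28.0% with totals without ribosomal RNA-like and mitochondrial features, 28.8% on the 1000 genes of highest excess, 5.67% with a mean count of at least 200, 44.6% without oocytes 4 and 7, and 0.0957% without oocytes 1 and 3, which were farthest from the median index.

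**Figure D4:**
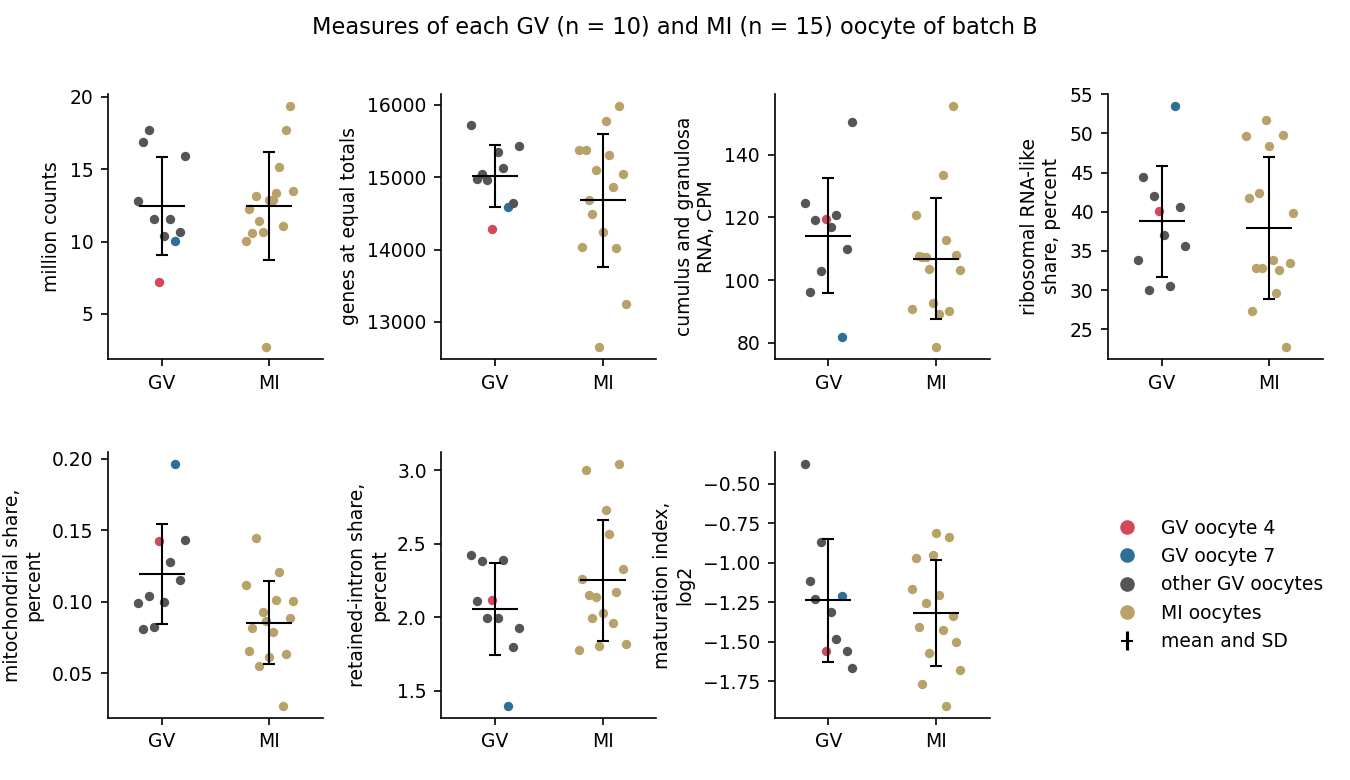
Per-oocyte measures of the 10 GV and 15 MI oocytes of batch B, 1 point per oocyte, with the mean as a line and the SD as a bar; the units stand on each vertical axis. The GV and MI oocytes overlap in every measure, and oocyte 7 is at an end of the GV range for the marker sum and for the ribosomal RNA-like, mitochondrial and retained-intron shares.

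Beside the MI oocytes, which had spent 8 h in culture, the GV oocytes overlapped in each of these measures. The mitochondrial share was higher in GV oocytes, at 0.119% ± 0.0349 (SD, 10 oocytes) against 0.0854% ± 0.0291 (SD, 15 oocytes), and 8 of the 10 GV oocytes lay above the MI median. All 10 lay above it with HTSeq counts, and also with expected counts once MI oocytes 4, 8 and 9, described below, were left out. The retained-intron share was 2.05% ± 0.313 in GV and 2.25% ± 0.411 in MI oocytes, the ribosomal RNA-like share 38.8% ± 7.04 and 37.9% ± 9.04, and the sum of cumulus and granulosa markers 114 CPM ± 18.4 and 107 CPM ± 19.2. Depth was alike, at 12473293 ± 3375598 and 12445585 ± 3744357 counts. Genes at equal total counts were 15008 ± 427 and 14681 ± 920, and 14510 ± 321 and 14190 ± 724 with ribosomal RNA-like features left out before thinning. Each of these differences was within the SD of the GV oocytes with all oocytes and expected counts, but those of 2 measures were not under some other settings. With HTSeq counts, genes at equal total counts were 14891 ± 231 at GV and 14022 ± 1002 at MI, with all 10 GV oocytes above the MI median. In MI oocytes 4, 8 and 9 the median ratio of HTSeq to expected counts over genes was 1.10, 1.08 and 1.04, whereas it was from 1.96 to 2.17 in the other oocytes of batch B. Without these 3 the HTSeq value at MI was 14418 ± 600.4, and all 10 GV oocytes were again above the MI median. With expected counts but without oocyte 4 the difference, MI minus GV, was −408 against an SD of 364, and without oocytes 4 and 7 it was −472 against 332. The difference of the mitochondrial share was −0.0251 against an SD of 0.0234 without oocyte 7, −0.0378 against 0.0344 without oocyte 3, −0.0380 against 0.0342 without oocyte 10, and −0.0366 against 0.0349 without MI oocytes 4, 8 and 9.

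Between pooled GV and pooled MI oocytes, with the counts of each stage summed, 224 of 12419 genes differed over 2-fold (1.8%). Of these, 174 were higher and 50 lower at MI. Of the 137 variable genes that could be compared, 15 differed (10.9%), all of them lower at MI. These genes had been ranked on spread among the same GV oocytes whose summed counts form the GV side. A high value in any GV oocyte raises both the spread and that sum. The number and its direction therefore cannot be told apart from the effect of this choice, which was not tested. Of the 68 variable genes not highest in oocyte 4, 12 differed (17.6%). With HTSeq counts the number over all genes was 106, of which 51 were higher and 55 lower at MI, or 125 (61 and 64) without MI oocytes 4, 8 and 9, and with medians of oocytes in place of pooled counts 73 were higher and 91 lower.

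Among the 100 genes with the highest excess, 14 were over 2-fold lower at MI, with the same limit from the ranking. Among those without a leading oocyte was Gli3, a transcription factor of Hedgehog signalling, which ran from 1.21 CPM in oocyte 3 through a median of 25.1 CPM to 54.8 CPM in oocyte 6 at GV, and from 0.0942 through a median of 1.56 to 23.9 CPM at MI (log2 difference −1.47). Oocytes 3, 5 and 8 were low for Gli3, at 1.21, 1.93 and 7.87 CPM, and the other 7 were between 18.8 and 54.8 CPM. Mylk3, a myosin light chain kinase, had a median of 1.29 CPM and a highest value of 15.7 CPM in oocyte 2 (−1.40 at MI), and Vim had a difference of −1.20. In C130074G19Rik (−2.24), Egflam (−1.15), Gnat2 (−1.05) and Ly6e (−1.08), the highest GV oocytes were those given above. Others were Gm47164 (−1.76), highest in oocyte 1 at 56.1 CPM, Gm42519 (−1.32), highest there at 20.2 CPM, and Gm37144 (−1.07), highest in oocyte 7 at 59.9 CPM. These 3 loci had at most 0.420 CPM in HTSeq counts and are uncertain. Gm20632, an antisense gene, was 24.2 to 169.97 CPM at GV and 4.02 to 60.1 CPM at MI (−1.52), but at most 0.267 CPM in HTSeq counts of the GV oocytes, and is uncertain. Cphx2 (−1.79), Duxbl2 (−1.15) and Gm28437 (−1.07) share reads with copies and are uncertain. Outside these genes, 2 of the 6 cumulus and granulosa markers that could be compared were over 2-fold lower at MI, Gja1 (−1.78) and Ccnd2 (−1.79), and none was over 2-fold higher, against 50 lower and 174 higher of all 12419 genes. The median of the 6 was −0.11. At MI the medians of Gja1 and Ccnd2 were 0.163 and 0.0564 CPM.

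The immediate early genes summed to between 14.0 CPM in oocyte 7 and 29.2 CPM in oocyte 8, with Btg2, an antiproliferative gene, as the most abundant at 4.56 to 18.5 CPM, and Egr1 at 2.25 to 5.31 CPM. Genes of the integrated stress and unfolded protein response summed to between 145 CPM in oocyte 7 and 355 CPM in oocyte 2, with a coefficient of variation of 24.4%, led by the chaperone gene Hspa5. Among them Atf4, the main transcription factor of this response, ran from 25.3 to 72.8 CPM with its highest value in oocyte 10. Genes of DNA damage and p53 family targets summed to between 83.2 CPM in oocyte 8 and 152 CPM in oocyte 2, of which Mdm2, the ubiquitin ligase of p53, made up 77.7%. Trp63, which guards oocyte DNA, ran from 3.69 to 18.0 CPM. These lists had 1, 4 and 3 members with a mean of at least 50 counts, too few to set their variation beside that of all genes.

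Multi-copy families, whose members share reads, were read as sums. The oocyte families such as Obox, Oas1 and Fbxw genes ran from 7954 CPM in oocyte 10 to 14104 CPM in oocyte 6, and sensory receptor genes from 6104 CPM in oocyte 10 to 8451 CPM in oocyte 2. Of the 1420 sensory receptor genes, 595 were at 0 in all 10 oocytes and 31 were kept, of which 2 were above the threshold, against 1.61% of all genes. These 2, Olfr288 and Vmn2r53, had a mean under 50 HTSeq counts and are uncertain. Olfr624, the most abundant sensory receptor gene, ran from 1762 to 2561 CPM in expected counts, but from 12.8 to 28.9 CPM in HTSeq counts, so its level is uncertain. The small RNA genes Rn7s1 and Rn7s2 had the same value as each other in every oocyte in expected counts, from 1506 to 4915 CPM.

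Among the 19900 pairs of the 200 genes with the highest excess, the median Spearman correlation over the 10 oocytes was 0.0667, against 0.103 over all pairs of the 8585 genes. A correlation above 0.8 was found for 0.980% of these pairs and 1.18% of all pairs, and one below −0.8 for 0.417% and 0.307%. The pair Rn7s1 and Rn7s2 led at 1.00 because both, near-identical copies, carried the same values. Next were 3 pairs at 0.964: Btbd7 with Plag1, Tcl1b4 with Scamp3, and Clip2 with Lig4. The pair of Rorb with Pgrmc2, a progesterone receptor membrane component, was at 0.952, but the level of Rorb is uncertain, as given above.

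Many of these genes had an end of their range in oocyte 4 or 7, and the correlations were not computed without these oocytes. Lig4, the ligase of DNA end joining, was 214 CPM in oocyte 4 and 28.0 CPM in oocyte 7 over a median of 104 CPM, and Clip2, a microtubule-binding protein, 40.6 and 3.69 CPM over a median of 14.8 CPM. Plag1, a zinc finger transcription factor, was highest in oocyte 4 at 107 CPM and lowest in oocyte 7 at 20.9 CPM, and Btbd7 highest in oocyte 4 at 57.4 CPM and lowest in oocyte 7 at 7.30 CPM. Tcl1b4 and Scamp3 were highest in oocyte 7, at 150.2 and 45.5 CPM, and lowest in oocyte 1, at 30.8 and 7.88 CPM. In HTSeq counts the correlation was 0.927 for Tcl1b4 with Scamp3 and for Clip2 with Lig4, but 0.564 for Btbd7 with Plag1. It was 0.758 for Rn7s1 with Rn7s2, and 0.770 for Rorb with Pgrmc2, which is uncertain because Rorb was low in those counts.

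The lowest correlations were −0.964 for Psd2 with Lars2, −0.952 for Ctbp2 with Klkb1, and −0.927 for Srpk1 with Gm17484, Gm15564 with Gdf9, and Calr with Atp5g2. Calr, the chaperone calreticulin of the endoplasmic reticulum, was 554 CPM in oocyte 10 and 96.8 CPM in oocyte 8, while Atp5g2, a subunit of ATP synthase, was 1.66 CPM in oocyte 10 and 26.3 CPM in oocyte 7. Ctbp2, a transcriptional corepressor, was 135 CPM in oocyte 1 and at most 49.3 CPM elsewhere. Gdf9 was lowest in oocyte 7 at 1209 CPM, where Gm15564 was highest at 61.5 CPM. In HTSeq counts the correlation was −0.842 for Gm15564 with Gdf9, −0.745 for Calr with Atp5g2 and −0.612 for Psd2 with Lars2, but 0.136 for Ctbp2 with Klkb1 and −0.0580 for Srpk1 with Gm17484, which are uncertain. The pair of Psd2 with Lars2 was at 0.668 in the MI oocytes and at −0.657 in the GV oocytes of batch A. For Clip2 with Lig4 these values were 0.468 and −0.6. The pairs were chosen for their values in these 10 oocytes. The 36 pairs at 0.9 or above had a median of 0.311 in the MI oocytes and 0.0857 in the GV oocytes of batch A, and the 13 pairs at −0.9 or below had −0.289 and −0.200, against 0.075 and 0.0286 over all 19900 pairs.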

How the data were processed

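Single mouse oocytes were profiled with Smart-seq2, which does not mark strand. Per the labels and the study's methods, the authors trimmed reads with Trim Galore 0.6.4, aligned them to mm10 with STAR 2.7.6a and quantified GENCODE VM20 genes. Expected counts were computed by the authors with RSEM 1.3.1, and the deposited HTSeq 0.12.4 table holds whole counts per gene. Each gene table held 54844 features, of which 92 were spike-in sequences that were left out, since their largest count in a GV oocyte of batch B was 32. Symbols and positions came from GENCODE M21, which matched 53861 identifiers.

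Expected counts were scaled to CPM (a library total of 1000000), and genes with a mean of at least 50 counts were kept. Excess was the log2 of the squared coefficient of variation minus a loess fit (span 0.5) on mean CPM. Principal components were taken of log2(CPM + 1), centred and not scaled. The maturation index used 278 genes higher and 817 lower at MII in batch A, picked by edgeR 4.0.16 (quasi-likelihood, counts rounded to whole numbers, adjusted p under 0.05 and fold over 2). That fit took single oocytes as replicates, so it served to pick genes and its calls are no result. Genes following a measure had a Spearman rho of size 0.8 or more over the 10 oocytes. Stages were compared as pooled counts at a 2-fold threshold.

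Oocytes are cells and no animal is named, so the planned edgeR and permutation tests across oocytes are not reported as results. The thresholds on rho and on the pooled fold, the length correlation and the sums of copies replaced or extended them and were chosen after the values were seen, as was the index as a measure that genes follow. Named genes were the 20 with the highest excess, the 10 with the highest excess without their highest oocyte, the 10 with the lowest excess, the 5 highest and 5 lowest pairs among 200 genes, all cumulus and granulosa markers, up to 4 genes of each other list by mean CPM, the 5 genes leading each direction of the edgeR fits on depth and on the marker sum, and those of the 100 most variable genes over 2-fold between stages. The members and lists were chosen with earlier results of these data known.

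Alternatives were TMM and RLE scaling, totals without ribosomal RNA-like and mitochondrial features, HTSeq counts, other count minimums, another span, another variance measure, other gene numbers and left-out oocytes. The computations were tested on simulated data. The software was matplotlib 3.10.9, scipy 1.17.1, pandas 2.3.3 and numpy 2.4.6 under Python 3.11.15, and limma 3.58.1 under R 4.3.3.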

Additional observations from a re-analysis of the deposited data

Results flagged for a closer look

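In the following items 1 of the 10 GV oocytes of batch B lay far from the rest. The value given is the gap to the nearest oocyte divided by the range of the 10, listed where it was above Dixon's 95% critical value. Chance flags about 1 in 20 groups. Such gaps were found for 841 of all 8585 genes (9.80%). Of the 26 genes named for their excess 19 had such a gap (73.1%), and the ranking on spread selects for gaps of this kind. Of the 163 genes named for another reason 44 had one (27.0%).

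Oocyte 4 was highest for the endothelial sum (0.763) and for Hif3a (0.927), Egflam (0.92), Cipc (0.892), Srpk1 (0.866), Tmf1 (0.838), Cd68 (0.836), Exoc6b (0.822), Rorb and Muc20 (both 0.82) and Pecam1 (0.813). It was also highest for Vps45 (0.788), Cdc42ep3 (0.787), Btbd7 (0.772), Gna12 (0.749), Gnat2 (0.738), Psd2 (0.732), Pgrmc2 (0.669), Tut7 (0.658), Plag1 (0.59), Lig4 (0.528), Cphx1 (0.523) and Prr14 (0.507), and it was lowest on the component after the next (0.516).

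Oocyte 7 was highest for Cdca3 (0.762), Gm15564 (0.641), Scamp3 (0.624), Tcl1b4 (0.608), Lars2 (0.571), mt-Cytb (0.57), Gm37144 (0.545), Hist2h2aa1 (0.512) and mt-Nd4 (0.483), and for Fshr (1), Inha (0.812) and Inhbb (0.641). It was highest on the first component (0.518), for the number of genes over 2-fold lower than in the others (0.654) and for the median log2 difference of the mitochondrial genome (0.562). It was lowest for the sums of chromatin regulators (0.545), of genes of prophase arrest and resumption (0.518) and of heat shock genes (0.492), and for Hspd1 (0.582) and Pde3a (0.535). It was also lowest for the median log2 difference of transcripts over 4 kb (0.611) and of 2 to 4 kb (0.525), of chromatin regulators (0.556) and of heat shock genes (0.54).

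Oocyte 1 was highest for Ctbp2 (0.781), Gm42519 (0.712), Gm47164 (0.665), Duxbl2 (0.59), Alas2 (0.58), Psmd4 (0.508) and mt-Rnr2 (0.488), and for Cd3e (1) and Wt1 (0.737). Oocyte 8 was highest for Vim (0.804), Col3a1 (0.712), the surface epithelium sum (0.638), Muc16 (0.569) and Ptprc (1), and oocyte 10 for Fst (0.969), C130074G19Rik (0.923), Hsd17b1 (0.809) and Calr (0.593). Oocyte 6 was highest for Gm42928 (0.831), Psmc6 (0.651) and Tek (0.621), oocyte 3 for Gm6768 (0.776) and Star (0.579), oocyte 2 for Nr5a1 (0.889), Inhba (0.667) and Padi6 (0.476), and oocyte 5 for Tnfaip6 (1) and Cyp11a1 (0.478). Of these, Fshr, Inha, Inhbb, Inhba, Cd3e, Wt1, Ptprc, Cd68, Col3a1, Muc16, Fst, Hsd17b1, Nr5a1, Star, Alas2, Tnfaip6 and Cyp11a1 had a mean under 50 counts. Duxbl2, Cphx1 and mt-Rnr2 share reads with copies, and their gaps are uncertain. The gaps of Srpk1, Pecam1, Tmf1, Tut7, Rorb, Gm6768, Gm42928, Gm47164, Gm42519 and Gm37144 are uncertain too, since their excess was 2 or less, or their mean under 50 counts, in HTSeq counts. In HTSeq counts Hist2h2aa1 was highest in another oocyte.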

How the results depend on the processing

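The number of genes above the variance trend, 138 with the main settings, was 222 with TMM scaling, 237 with totals without ribosomal RNA-like and mitochondrial features, and 67 with a mean count of at least 200, where fewer genes were tested. The variance of log2(CPM + 1) shared 62 of the 138 genes. Leaving out 1 oocyte at a time gave 83 to 172 genes. Genes following depth (137) were 85 with HTSeq counts and 132 to 382 with 1 oocyte left out. Genes following the sum of cumulus and granulosa markers (170) were 47 with RLE, 47 with TMM and 46 with HTSeq counts. They were 378 without oocytes 4 and 7, and 198 to 374 with 1 oocyte left out. Genes following the maturation index (202) were 102 with RLE, 100 with TMM, 459 with HTSeq counts, 543 without oocytes 4 and 7, and 202 to 481 with 1 oocyte left out. Genes over 2-fold between pooled stages (224) were 106 with HTSeq counts, 125 with HTSeq counts without MI oocytes 4, 8 and 9, and 208 to 269 with 1 GV oocyte left out. Fewer oocytes give more correlations of size 0.8 by construction, and otherwise the cause was not tested.

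The share of the first component (26.1%) was 36.45% with a mean count of at least 200 and 23.52% to 29.23% with 1 oocyte left out. Its squared correlation with depth (24.5%) was 1.726% without oocytes 4 and 7, 61.12% as the squared Spearman rho, 13.19% without the 2 oocytes farthest from the median, and 19.74% to 30.31% with 1 oocyte left out. With the cumulus and granulosa marker sum (16.9%) it was 55% without oocytes 4 and 7 and 11.88% to 41.81% with 1 left out. With the maturation index (11.5%) it was 78.49% with HTSeq counts and 2.314% to 54.66% with 1 left out. Genes detected at equal total counts differed by −868.7 between MI and GV with HTSeq counts, against −327.7 with the main settings, and the SD of the GV oocytes was 231 and 427. The difference was −472.6 with HTSeq counts without MI oocytes 4, 8 and 9, whose ratio of HTSeq to expected counts stood apart. Of the 100 most variable genes, 17% were in the top 10% of GV oocytes of batch A with HTSeq counts, and of 500 genes 19.6% were there and 31.6% in the MI oocytes. The cause was not tested for these values. Leaving out oocytes 4 and 7, TMM for the correlations, medians in place of pooled counts, HTSeq counts without the 3 MI oocytes, the index picked by pooled fold, the next component, the thinning without ribosomal RNA-like features, the list sums without oocyte 7 and the other scalings of oocyte 7 were chosen after seeing the data.

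The other alternatives left these counts of genes within 1.5 times of the main ones. They numbered 12 for genes above the trend, 9 for depth, 7 for the marker sum, 10 for the index and 16 for the stages. DESeq2, a term for log2 depth in the comparison of stages and the replicate block were planned and not run, since each stage counted as 1 sample. No paired analysis was possible because the comparison of stages, a fold between pooled counts, comes from no test. Same-numbered GV and MI oocytes had correlations of −0.211 to 0.134. The single oocyte per library, the absence of molecular identifiers and the lowest depth of 7184205 counts limit what low genes can show.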
